A study of Sus scrofa with 6 samples.

Results

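Autotaxin (ENPP2), receptors of lysophosphatidic acid (LPA) and the lipid phosphatases PLPP1, PLPP2 and PLPP3 were examined in the abdominal aorta of miniature pigs on an atherogenic diet. The genes were chosen by name for their place in the pathway, with no threshold on a measured value, and 7 of the 8 names had a row among the 30477 genes of the deposited table. Of these, 6 were found by symbol, and PLPP3 was found by its Ensembl identifier, under which the table also carries the description phospholipid phosphatase 3. LPAR6 was not analysed here. The animals were male Wuzhishan miniature pigs, aged 3 to 4 months by the sample labels and older by the methods. The 3 pigs of the NC group received normal chow for 6 months, and the 3 pigs of the HFCF group received a diet high in fat, cholesterol and fructose for the same time. Total RNA of whole abdominal aorta was sequenced, so the values mix all cells of the wall and its lesions. Nothing in the labels tells an animal from the others of its group except its number, and the p-values measure only the spread between these libraries.

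Autotaxin is a secreted lysophospholipase D that removes choline from lysophosphatidylcholine (LPC) outside the cell and leaves LPA, a signalling lipid. LPA acts on G protein-coupled receptors of separate families, the EDG type with LPAR1, LPAR2 and LPAR3, and the P2Y-like type with LPAR4, LPAR5 and LPAR6. PLPP1, PLPP2 and PLPP3 are membrane phosphatases that take the phosphate off LPA and related lipids and so end the signal, and the table annotates them to ether lipid, glycerophospholipid and sphingolipid metabolism. In vessels LPA is known as an activator of platelets and smooth muscle cells. The study measured LPC, the substrate of autotaxin, among its lipids, and the comparison asks whether the transcripts that make, sense and remove LPA differed between the diets.

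Values are FPKM, fragments mapped to a transcript scaled by its length and by the size of the library, which are levels per transcript length and can be compared between genes. The diets were compared with limma on log2(FPKM + 0.1), in the 15384 genes that averaged 0.1 FPKM or more, and a difference on this scale understates the change of weakly expressed genes. A gene was called when its Benjamini-Hochberg adjusted p was under 0.05. Relative depths reached at most 1.37 times that of the first NC library, and only this library-to-library ratio, not the absolute depth, could be estimated. The median log2 fold change (HFCF minus NC) of all tested genes was 0.32. Median-ratio scaling moved it to -0.0031, quantile normalization to -0.06 and conversion to TPM to 0.09, so the change of each tested member is also given relative to that median. The macrophage markers separated the groups. All 11 tested markers were higher in the HFCF group, and their summed level was 48.0 to 59.8 FPKM in the NC pigs and 718.2 to 1847 FPKM in the HFCF pigs. Of 8 smooth muscle markers 6 were lower, with sums of 15996 to 22763 FPKM in the NC pigs and 8041 to 12941 FPKM in the HFCF pigs. In bulk tissue, fewer cells of a type and less RNA per cell cannot be told apart.

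None of the genes of the autotaxin and LPA axis was called between the diets. LPAR4 was below the minimum level, and among the 6 tested members 0 had an adjusted p under 0.05 in limma, against 28.9% of all tested genes. At an unadjusted p under 0.05 the count was also 0 of 6, against 42.3% of all tested genes. The study's own criteria, a ratio of group means above 2 or below 0.5 with an unadjusted p under 0.05, were met by 0 of 6, against 25.5% of all genes. The NC and HFCF values overlapped in each of the 6 genes, whereas they did not overlap in 48.2% of all tested genes. Log2 fold changes of the members ran from -0.59 to 1.82 with a median of 0.09, which lies below the 0.32 of all genes. Their adjusted p-values from limma ran from 0.224 to 0.849. With 3 pigs a group the intervals were wide, and each of them is given below.

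**Figure D1:**
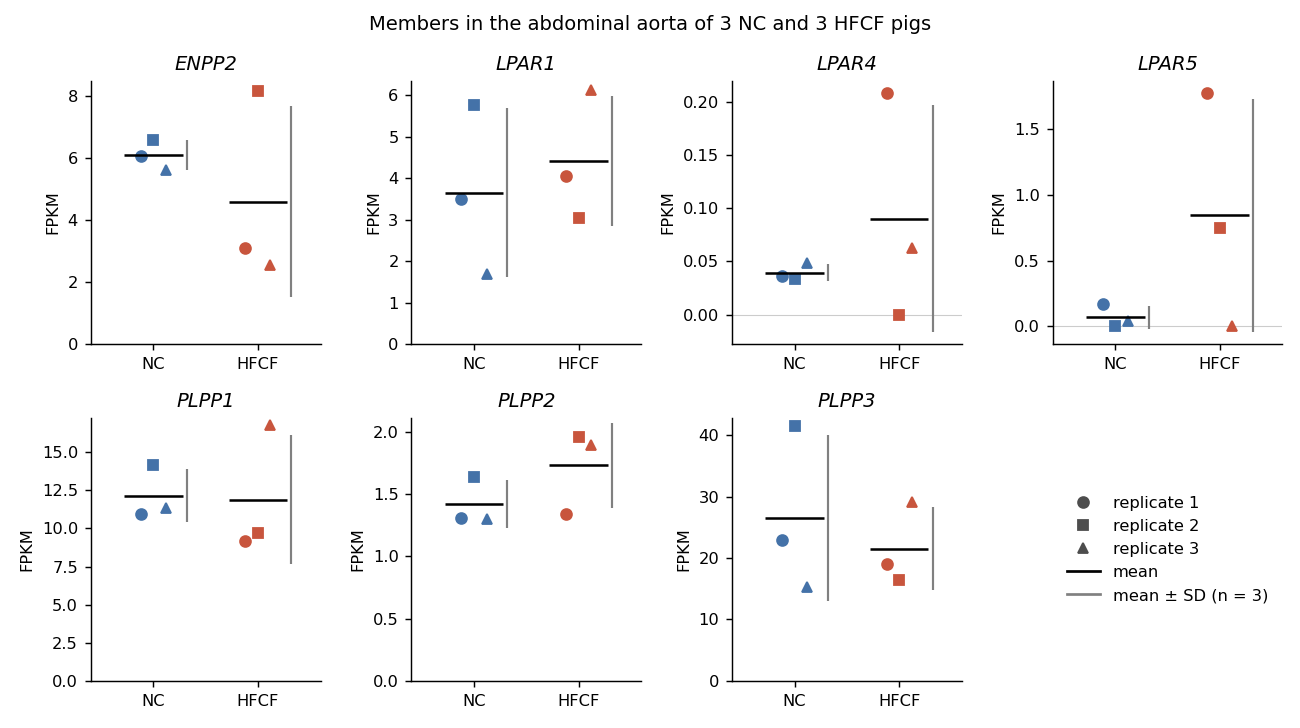
FPKM of the 7 members (vertical axes, each starting at or just below 0) in the 3 NC and 3 HFCF pigs, with marker shape for the replicate number, a black line for the mean and a grey bar for the mean ± SD (n = 3). NC and HFCF points overlap in every panel, and a single HFCF pig stands away from the other HFCF pigs in the panels of ENPP2 (8.17 FPKM) and PLPP1 (16.8 FPKM).

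The order of the levels was the same in both groups. PLPP3 was the most abundant, averaging 26.5 FPKM on NC and 21.5 FPKM on HFCF, followed by PLPP1, ENPP2, LPAR1, PLPP2, LPAR5 and LPAR4. In the NC pigs the ranges of neighbours in this order were apart, except those of ENPP2 and LPAR1 and those of LPAR5 and LPAR4. In the HFCF pigs only PLPP1 and ENPP2, and LPAR1 and PLPP2, were apart from each other, while the ranges of the other neighbours overlapped. Within a pig, PLPP1 was 34.1% to 74.5% of PLPP3 over the 6 libraries and so below it in each.

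ENPP2 (ENSSSCG00000006001), the autotaxin gene, was 6.07, 6.61 and 5.64 FPKM in NC pigs 1 to 3. In HFCF pigs 1 to 3 it was 3.10, 8.17 and 2.55 FPKM. HFCF pigs 1 and 3 thus lay below every NC pig and HFCF pig 2 above every NC pig. The means were 6.11 ± 0.49 FPKM (SD, n = 3) and 4.61 ± 3.10 FPKM (SD, n = 3), a log2 fold change of -0.59 (SE 0.41, limma adjusted p = 0.319), or -0.91 relative to the median gene. The 95% interval ran from -1.56 to 0.39 on the log2 scale, which is 0.339-fold to 1.31-fold. The SD of ENPP2 on the log2 scale was 0.11 among NC pigs and 0.88 among HFCF pigs, while the median gene had 0.29 and 0.32. Without HFCF pig 2 the log2 fold change was -1.09 (limma adjusted p = 0.0243), whereas without HFCF pig 3 it was -0.27 (limma adjusted p = 0.654). Over 15 alternatives the adjusted p lay between 0.0243 and 0.666. The call and the size of the change therefore turned on single pigs. Of the HFCF pigs, pig 2 had the lowest summed adipocyte markers (88.5 FPKM) and the middle value of the macrophage markers (815.1 FPKM) and smooth muscle markers (9567 FPKM). Whether cell composition had a part in its ENPP2 level was not tested.

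The 3 genes whose pattern over the 6 libraries was closest to that of ENPP2 were ERGIC1, RNASEH1 and MEAF6, among 10084 named genes with a mean of at least 1 FPKM. Likeness was the root mean square difference of the log2 values after centring each gene, and it was 0.20, 0.20 and 0.21. ERGIC1 was 17.2 to 21.4 FPKM in the NC pigs and 7.28, 25.2 and 7.39 FPKM in HFCF pigs 1 to 3. RNASEH1 was 7.21 to 8.03 FPKM in the NC pigs and 3.06, 7.59 and 2.73 FPKM in the HFCF pigs. MEAF6 was 10.5, 11.03 and 7.05 FPKM in NC pigs 1 to 3 and 4.40, 14.0 and 3.08 FPKM in the HFCF pigs.

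Among the receptors, LPAR1 (ENSSSCG00000005457), the EDG-type receptor that couples to several G proteins, had the highest level of the measured LPA receptors in every pig. It was 3.51, 5.76 and 1.69 FPKM in NC pigs 1 to 3 and 4.05, 3.05 and 6.11 FPKM in HFCF pigs 1 to 3. The lowest value was in an NC pig and the highest in an HFCF pig, and the ranges overlapped widely. The means were 3.65 ± 2.04 and 4.40 ± 1.56 FPKM (SD, n = 3 each), that is, a log2 fold change of 0.37 (SE 0.46, limma adjusted p = 0.58) with a 95% interval from -0.72 to 1.45, and the change was 0.045 relative to the median gene. The sign is not settled, since the log2 fold change was -0.10 after quantile normalization and -0.087 without the third NC pig. LPAR2, a further EDG-type receptor that was not chosen as a member, was 1.58 to 1.96 FPKM in the NC pigs and 1.35 to 2.35 FPKM in the HFCF pigs (log2 fold change 0.03, adjusted p = 0.935, limma). LPAR3 was listed at 0 in all 6 libraries.

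LPAR5 (ENSSSCG00000000699), a P2Y-like receptor present on platelets and leukocytes, was 0.166, 0 and 0.0405 FPKM in NC pigs 1 to 3. In HFCF pigs 1 to 3 it was 1.78, 0.751 and 0.00406 FPKM. The first and second HFCF pigs were above every NC pig, while the value of HFCF pig 3 was below those of 2 of the 3 NC pigs. Multiplied by relative depth, LPAR5 was 0.166 in NC pig 1, 0.0554 in NC pig 3 and 0.00433 in HFCF pig 3. Values this low rest on few fragments, so the order of the NC pigs and HFCF pig 3 is not settled. LPAR5 passed the minimum level only through the HFCF group, whose mean was 0.843 ± 0.889 FPKM (SD, n = 3) against 0.0689 ± 0.0867 FPKM (SD, n = 3). The log2 fold change was 1.82 (SE 1.03, limma adjusted p = 0.224), with a 95% interval from -0.62 to 4.26, and the change was 1.503 relative to the median gene. Its size moved with the pseudocount, to 2.58 at 0.01 and 0.67 at 1. Without HFCF pig 3 it was 3.02 (limma adjusted p = 0.0205), and without HFCF pig 1 it was 0.94 (limma adjusted p = 0.506). Because the gene entered the test through the group in which it was higher, these p-values are a description and no evidence for a difference. Summed macrophage markers were 1847, 815.1 and 718.2 FPKM in HFCF pigs 1 to 3. Summed neutrophil markers, with 1 of 3 tested genes (CSF3R) called, were 67.8, 10.3 and 5.52 FPKM in these pigs and at most 1.47 FPKM on NC. Summed platelet markers, of which 5 of 6 had a row and 0 were called, were 18.8, 10.8 and 9.55 FPKM in the same pigs and at most 11.4 FPKM on NC. Summed T and B cell markers were 53.7, 40.3 and 37.0 FPKM in these pigs and at most 10.99 FPKM on NC. Most of that sum was CD79A, at 38.0, 36.0 and 34.1 FPKM, whereas CD3D was 2.96, 0.308 and 0.378 FPKM in HFCF pigs 1 to 3. All 4 sums had the order of LPAR5 in the HFCF pigs, and so did the summed endothelial markers (256.4, 146.9 and 96.2 FPKM). The order is thus not particular to blood cell markers. It did not hold for every single marker either, since CD163, CSF1R, MRC1, AIF1 and CD14 were higher in HFCF pig 3 than in HFCF pig 2. The part of any of these cells in the LPAR5 values was not tested.

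LPAR4 (ENSSSCG00000012445), another P2Y-like receptor, was close to the lowest level the libraries can show. It was 0.0363, 0.0333 and 0.0485 FPKM in NC pigs 1 to 3 and 0.209, 0 and 0.0625 FPKM in HFCF pigs 1 to 3. Multiplied by relative depth, it was 0.0363 in both of the first 2 NC pigs, and 0.0664 and 0.0667 in NC pig 3 and HFCF pig 3. Such coinciding values come from a few fragments, and no difference was detectable at this depth.

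The phosphatases made up the most abundant step of the axis. PLPP3 (ENSSSCG00000003839), known for limiting LPA signalling in the vessel wall, was 22.9, 41.4 and 15.2 FPKM in NC pigs 1 to 3 and 19.0, 16.4 and 29.2 FPKM in HFCF pigs 1 to 3. All 3 HFCF values fell inside the NC range. The log2 fold change was -0.22 (SE 0.38, limma adjusted p = 0.692), or -0.54 relative to the median gene, and it was 0.16 without the second NC pig. The 95% interval of -1.13 to 0.68 on the log2 scale, whose lower end is 0.457-fold, includes a loss of more than 2-fold.

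PLPP1 (ENSSSCG00000016912), the broadly expressed member of the family, was 10.9, 14.1 and 11.3 FPKM in NC pigs 1 to 3 and 9.16, 9.72 and 16.8 FPKM in HFCF pigs 1 to 3. HFCF pigs 1 and 2 lay below the NC range and HFCF pig 3 above it. Group means were nearly equal, 12.1 ± 1.74 and 11.9 ± 4.26 FPKM (SD, n = 3 each), with a log2 fold change of -0.075 (SE 0.26, limma adjusted p = 0.849) and an interval of 0.623-fold to 1.45-fold. Relative to the median gene it was -0.40, and median-ratio scaling moved it to -0.43 (limma adjusted p = 0.262).

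PLPP2 (ENSSSCG00000014004), the weakest of the phosphatases, was 1.31, 1.64 and 1.30 FPKM in NC pigs 1 to 3 and 1.34, 1.96 and 1.89 FPKM in HFCF pigs 1 to 3. HFCF pigs 2 and 3 were above every NC pig and HFCF pig 1 was not. The log2 fold change was 0.26 (SE 0.25, limma adjusted p = 0.466), with a 95% interval from -0.33 to 0.85. It was -0.06 relative to the median gene, and it turned to -0.075 with median-ratio scaling and to -0.39 with quantile normalization.

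LPAR1 and PLPP3 were ordered alike within each group. In the NC group both were highest in the second pig and lowest in the third, and in the HFCF group both were highest in the third pig and lowest in the second. PLPP1 was also highest in NC pig 2 and HFCF pig 3. Summed fibroblast markers, of which all 7 had a row and 1 (LUM) was called, were 3475, 4230 and 1941 FPKM in NC pigs 1 to 3 and 2383, 2606 and 4404 FPKM in HFCF pigs 1 to 3, so the same pigs of each group were highest. The lowest HFCF sum was in pig 1, whereas LPAR1 and PLPP3 were lowest in pig 2. All 7 markers were highest in NC pig 2. DCN, PDGFRA, COL1A1, COL1A2 and PI16 were each highest in HFCF pig 3. LUM (200.2, 174.5 and 154.0 FPKM) and DPT (19.2, 13.7 and 11.3 FPKM) were lowest there. Summed smooth muscle markers were highest in HFCF pig 3 (12941 FPKM) too, but in NC pig 1 (22763 FPKM) among the NC pigs. Summed adipocyte markers, with 6 of 7 having a row and 0 called, followed the order of PLPP3 in the NC pigs (190.3, 297.3 and 37.6 FPKM) but not in the HFCF pigs (132.5, 88.5 and 103.4 FPKM). Summed endothelial markers, with 0 of 7 called, were 205.3, 226.5 and 109.1 FPKM in NC pigs 1 to 3 and 256.4, 146.9 and 96.2 FPKM in HFCF pigs 1 to 3, which is the order of PLPP3 in the NC pigs alone. Whether the makeup of a sample had a part in these orders was not tested.

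**Figure D2:**
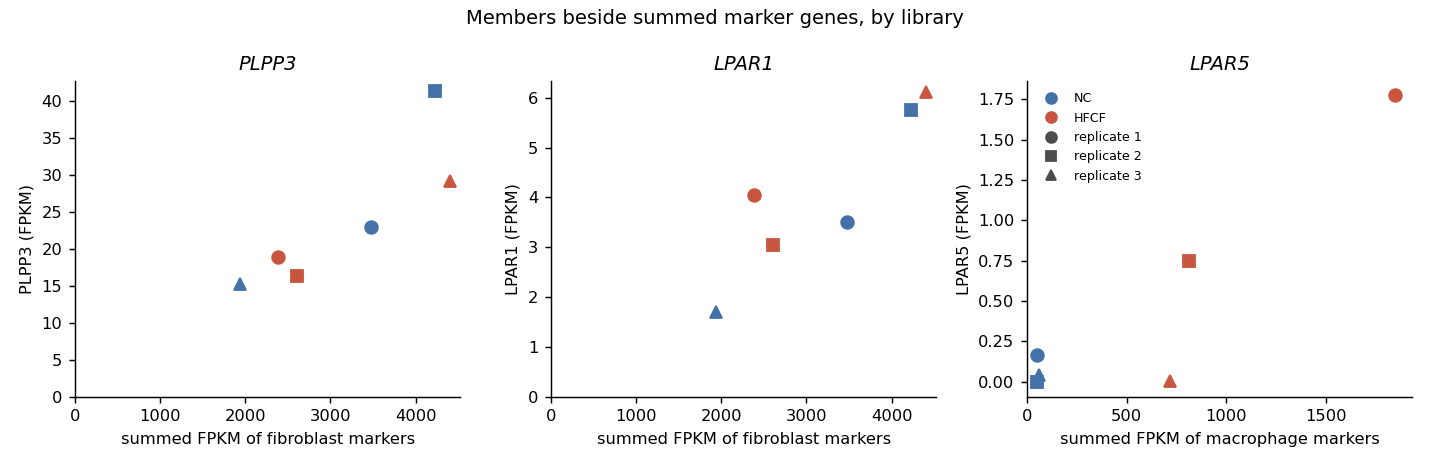
FPKM of PLPP3 and LPAR1 against summed FPKM of 7 fibroblast markers, and of LPAR5 against summed FPKM of 11 macrophage markers, in 3 NC and 3 HFCF pigs. The third HFCF pig has macrophage markers at 718.2 FPKM with LPAR5 near 0, and NC pig 2 and HFCF pig 3 are highest in summed fibroblast markers and in LPAR1.

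Ratios within a library do not depend on the scaling between libraries, so the balance of the axis was compared in this way. ENPP2 was 17.3%, 11.6% and 20.3% of the summed FPKM of PLPP1, PLPP2 and PLPP3 in NC pigs 1 to 3 and 10.5%, 29.1% and 5.33% in HFCF pigs 1 to 3. The HFCF values thus lay on both sides of the NC values. On the log2 scale the group difference was -0.44 (p = 0.6, exact two-sided permutation test, adjusted p = 0.8 over 3 ratios), and it was 0.14 without the third HFCF pig. PLPP1 formed 24.7% to 40.7% of the phosphatase sum in the NC pigs and 31.1% to 35.1% in the HFCF pigs, a difference of 1.44 percentage points (p = 0.8, exact permutation test, adjusted p = 0.8). LPAR1 formed 94.5% to 99.4% of the summed LPAR1, LPAR4 and LPAR5 on NC, and 67.1%, 80.2% and 98.9% of it in HFCF pigs 1 to 3, where LPAR5 supplied 29.4%, 19.8% and 0.0657%. That difference was -14.2 percentage points (p = 0.3, exact permutation test, adjusted p = 0.8), and it was -6.74 without HFCF pig 1 and -22.7 without HFCF pig 3. The share moved with LPAR5, which passed the minimum level only through the HFCF group, and LPAR4 was below that level. The p-value of this share is therefore a description and no evidence for a difference. LPAR2, which was not a member, was left out of the sum. At 1.58 to 1.96 FPKM in the NC pigs and 1.35 to 2.35 FPKM in the HFCF pigs, LPAR2 would lower every LPAR1 share. The shares are therefore not those of all LPA receptors. With 3 pigs against 3 the exact test cannot go below p = 0.1. Formed after the values had been seen and therefore given with no test, LPAR1 was 11.1% to 15.3% of PLPP3 in the NC pigs and 18.6% to 21.3% in the HFCF pigs, without overlap. How often other pairs of genes were apart was not counted, so this ratio is a description only.

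**Figure D3:**
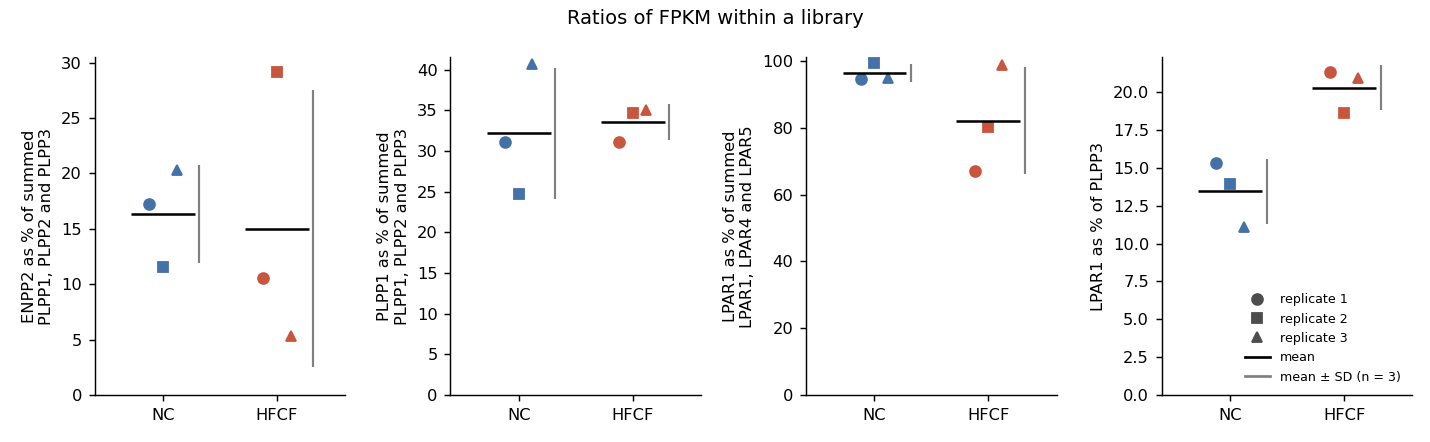
Ratios of FPKM within each library, in percent, for 3 NC and 3 HFCF pigs, with marker shape for the replicate number, black lines for means and grey bars for the mean ± SD (n = 3). The groups overlap for ENPP2 over the phosphatases, for the PLPP1 share and for the LPAR1 share of LPAR1, LPAR4 and LPAR5. LPAR1 as a percentage of PLPP3, 11.1% to 15.3% against 18.6% to 21.3%, was chosen after its values had been seen, so its groups are apart by choice.

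Other genes of lysophospholipid handling were counted in the same way. Among 57 tested genes in 7 lists of related receptors, enzymes and signalling proteins, 16 rose and 3 fell on the HFCF diet at an adjusted p under 0.05 in limma, against 22.8% and 6.16% of all tested genes. Their median log2 fold change was 0.16, below that of all genes, and the count of 19 is near the background. The NC and HFCF values did not overlap in 29 of the 57, against 48.2% of all tested genes. The count of called genes, 19 in the main fit, was 10 with no filter on low values and 11 with quantile normalization. That count was 9 without the first NC pig, 12 without the second NC pig and 12 without the second HFCF pig.

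Enzymes that supply and reacylate LPC had 4 genes higher, 1 lower and 4 not called. PLA2G7, the macrophage-derived lipoprotein-associated phospholipase that releases LPC from oxidized phosphatidylcholine, was 0.454, 0.63 and 0.24 FPKM in NC pigs 1 to 3 and 8.10, 8.10 and 4.95 FPKM in HFCF pigs 1 to 3. All HFCF pigs were far above all NC pigs, and the gene rose by a log2 fold change of 3.76 (SE 0.36, limma adjusted p = 0.0012). LPCAT2, an LPC acyltransferase that also forms platelet-activating factor, rose from 0.887 ± 0.336 to 4.44 ± 2.74 FPKM (SD, n = 3 each), that is, a log2 fold change of 2.09 (limma adjusted p = 0.0186). PLA2G4A, the cytosolic phospholipase that frees arachidonate, and LPCAT1 rose by log2 fold changes of 1.10 and 0.83. The study itself singled out PLA2G7, LPCAT2 and PLA2G4A in these same samples, so their direction here is not independent evidence. LPCAT4, named after its values were seen as the only gene of the list called lower, changed by -0.71 (adjusted p = 0.0347, limma). PLA2G7 was called in all 15 alternatives, LPCAT2, PLA2G4A and LPCAT1 in 10 each and LPCAT4 in 7. The summed macrophage markers given above were higher in the same pigs, and their part in the PLA2G7 and LPCAT2 values was not tested.

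Other enzymes that form LPA or phosphatidic acid had 3 genes higher and 5 not called. GDPD3, an intracellular lysophospholipase D, rose from 13.9 ± 6.11 to 39.6 ± 16.5 FPKM (SD, n = 3 each), that is, a log2 fold change of 1.51 (limma adjusted p = 0.044), but was called in only 5 of 15 alternatives. GPAM, a mitochondrial acyltransferase that makes LPA for glycerolipid synthesis, rose by 0.96 (adjusted p = 0.0217, limma) and PLD2, a phospholipase D that makes phosphatidic acid, by 0.81 (adjusted p = 0.00683, limma). GPAM was called in 8 and PLD2 in 14 of 15 alternatives. Of the 11 tested genes that remove LPA or phosphatidic acid, 2 were higher. AGPAT5, which acylates LPA to phosphatidic acid, rose from 3.78 ± 0.19 to 7.05 ± 0.57 FPKM and PLPP5, a relative of the phosphatases described above, from 3.27 ± 0.30 to 5.66 ± 0.47 FPKM (SD, n = 3 each). Their log2 fold changes were 0.88 and 0.77 (adjusted p = 0.00875 and 0.0173, limma). The call of AGPAT5 was lost with quantile normalization alone, and that of PLPP5 in 5 of 15 alternatives, among them the 3 scalings.

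Relatives of autotaxin in the ENPP family, which hydrolyse nucleotides or choline lipids, had 2 of 5 tested genes higher. ENPP1, which makes the calcification inhibitor pyrophosphate, was 2.55 to 2.72 FPKM in the NC pigs and 13.0, 6.61 and 4.62 FPKM in HFCF pigs 1 to 3, a log2 fold change of 1.44 (limma adjusted p = 0.0253). ENPP4 rose by 1.76 (adjusted p = 0.0172, limma). These genes were called in 8 and 11 of 15 alternatives. None of the 4 tested PLPP-related proteins was called in limma, and 1 of them had an unadjusted p under 0.05.

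Among other lysophospholipid receptors, GPR34, a receptor for lysophosphatidylserine on macrophages and microglia, was 0.154, 0.143 and 0.182 FPKM in NC pigs 1 to 3 and 3.83, 3.68 and 2.96 FPKM in HFCF pigs 1 to 3. It rose by a log2 fold change of 3.78 (SE 0.25, limma adjusted p = 0.000482) and was called in all 15 alternatives. In contrast to LPAR5, it was high in the third HFCF pig as well. The part of the macrophage markers, which were higher in the same 3 pigs, was not tested.

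Downstream of the receptors, called G protein alpha subunits moved in opposite directions. GNAQ rose from 1.51 ± 0.22 to 5.81 ± 2.39 FPKM and GNA13 from 3.34 ± 1.51 to 9.39 ± 3.18 FPKM (SD, n = 3 each), log2 fold changes of 1.81 and 1.51 (adjusted p = 0.00729 and 0.0249, limma). GNA12, the close relative of GNA13, fell from 41.1 ± 5.65 to 19.9 ± 3.84 FPKM and GNAI1, an inhibitory subunit, from 3.51 ± 0.86 to 0.975 ± 0.147 FPKM (SD, n = 3 each), log2 fold changes of -1.06 and -1.72 (adjusted p = 0.00902 and 0.00533, limma). GNAQ, GNA12 and GNAI1 were called in all 15 alternatives and GNA13 in 7. Summed smooth muscle markers were without overlap lower on HFCF, as GNA12 and GNAI1 were, and their part was not tested. CCN1 and CCN2, transcripts that LPA induces in cultured cells, were not called, with log2 fold changes of -0.51 and -0.39 (adjusted p = 0.0995 and 0.47, limma). The NC and HFCF ranges of CCN1 were apart, 462.5 to 713.3 FPKM against 360.1 to 431.0 FPKM, and those of CCN2 overlapped.

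**Figure D4:**
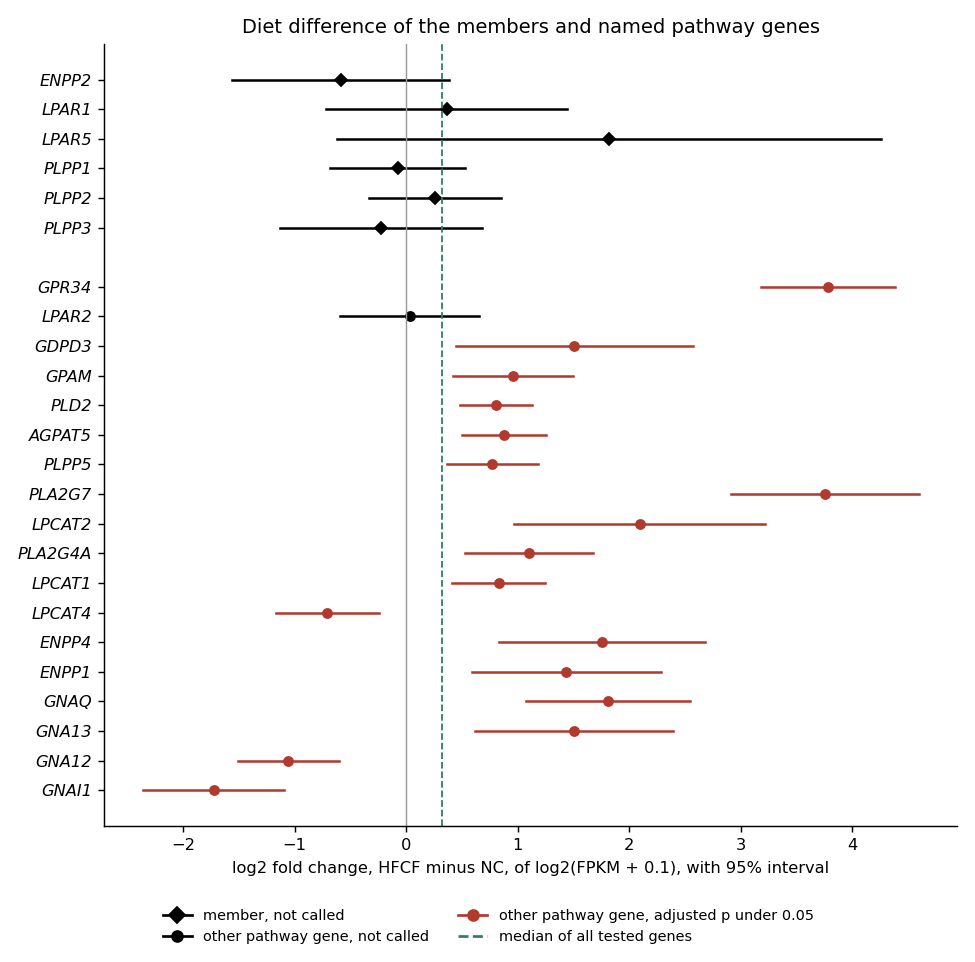
Log2 fold change of log2(FPKM + 0.1), HFCF minus NC, with 95% intervals from limma for the 6 tested members (diamonds) and 18 other pathway genes (circles), red where the adjusted p was under 0.05, with a dashed line at the median of all tested genes (0.32). The intervals of all 6 members include 0, whereas GPR34 (3.78) and PLA2G7 (3.76) lie farthest to the right.

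**Figure D5:**
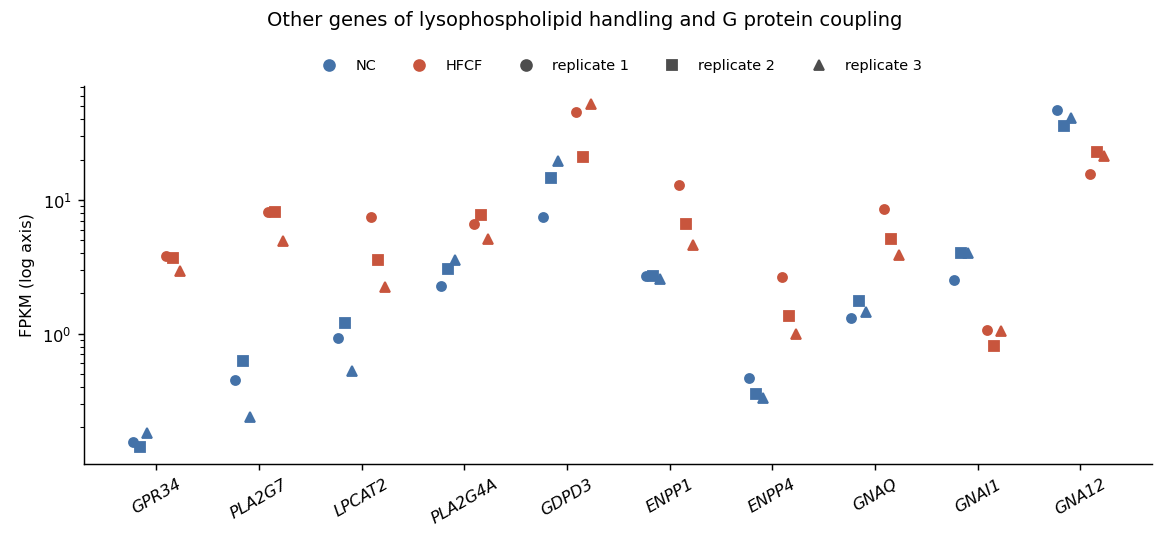
FPKM on a log axis of 10 other genes of lysophospholipid handling and G protein coupling in 3 NC (blue) and 3 HFCF (red) pigs, with marker shape for the replicate number. The 10 genes were drawn because they were called, so their NC and HFCF points are apart by choice, and GNAI1 and GNA12 are the ones lower in the HFCF pigs.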

How the data were processed

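Abdominal aorta RNA of 3 NC and 3 HFCF pigs was compared. Per the methods and the labels, the authors trimmed reads with cutadapt 1.9, checked them with FastQC, aligned them with HISAT2 and quantified them with StringTie, and they deposited FPKM values, which were used unchanged. A value of 0.0001 FPKM was read as 0. Coordinates are left out, since the methods name an earlier genome build than the gene names table. Read counts were not used here. Relative depths were taken from the most common ratio between libraries of values under 0.3 FPKM in genes with 1 transcript.

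Differences were tested with limma 3.58.1 in R 4.3.3 (eBayes with a variance trend, diet as the only factor) over all genes with a mean of at least 0.1 FPKM, after a test on simulated data. Ratios were compared with exact permutation tests. The 15 alternatives were other pseudocounts (1 and 0.01), other minimum levels, median-ratio, quantile and TPM scaling, no variance trend, a replicate block and the omission of each pig. Named were all members, the genes of each related list with an adjusted p under 0.05, up to 4 a list by size of change, LPAR2 and LPAR3, and the 3 genes most like ENPP2. CCN1, CCN2 and LPCAT4 were added after their values were seen. Some related signalling genes are not reported here. The members and lists were chosen by name, but with earlier results of these data known. Of the remaining marker lists, 0 of 7 endothelial, 1 of 3 neutrophil, 1 of 3 mast cell and 2 of 9 T and B cell genes were called.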

Additional observations from a re-analysis of the deposited data

How the results depend on the processing

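LPAR5 had no value at a minimum mean of 1 FPKM. The count of called members was 0 in 13 of 15 alternatives and ran from 0 to 1 over the omissions of single pigs. All tested genes gave 4453 calls, 2516 with no filter on low values, 2772 with the replicate block and 2399 to 3562 with each pig left out. The other pathway genes gave 19 calls, 10 with no filter on low values, 11 with quantile normalization, 11 with the replicate block and 9 to 16 with each pig left out. With no filter more genes share the adjustment, and the block and the omissions leave fewer degrees of freedom. The part of either in the lower counts was not tested. ENPP2 passed without the second HFCF pig (-1.09) and LPAR5 without the third HFCF pig (3.02). Log2 fold changes changed sign for LPAR1 (-0.10 with quantile normalization, -0.087 without the third NC pig, up to 0.77 without the second), PLPP1 (0.038 without the second NC pig, 0.084 without the first and 0.041 without the second HFCF pig, down to -0.35 without the third), PLPP2 (-0.075 with median-ratio scaling, -0.39 with quantile normalization) and PLPP3 (0.16 without the second NC pig, down to -0.56 without the third). With each pig left out, the log2 ratio of ENPP2 to the phosphatases differed by -1.09 to 0.14, the PLPP1 share by -2.29 to 5.70 and the LPAR1 share by -22.7 to -6.74 percentage points. The causes were not tested. Scaling moved the split of calls over all genes from 3505 higher and 948 lower to 2033 and 1968 with median-ratio scaling, 1766 and 1759 with quantile normalization and 2229 and 1527 with rescaling to TPM. Deviations of same-numbered NC and HFCF libraries from their group means correlated at 0.021, -0.079 and -0.072 across genes. Libraries of different numbers gave -0.069 to 0.127. These values showed no sign that the numbers pair the pigs, but 3 libraries a group cannot exclude it. The replicate block changed no call among the members.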
